A study of Mus musculus with 12 samples.

Results

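The SLC25 family of mitochondrial carriers was followed across brown and white adipose tissue of mice with 0, 1 or 2 copies of the Ucp1-CreEvdr transgene. Members were taken by name only, as every row of the deposited gene table whose symbol is Slc25a followed by a number, plus Ucp2 and Ucp3. This gave 49 genes (47 with an Slc25a symbol and both uncoupling proteins) of 24541 rows. Ucp1, a relative that marks brown fat, is used here as a depot marker only.

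RNA was sequenced from the interscapular brown depot and from a subcutaneous depot of the hind body (iWAT in the titles), called brown and white in what follows. The genotypes were 1xUcp1-CreEvdr, 2xUcp1-CreEvdr and Wildtype, that is, 1, 2 or no copies of a transgene known to express Cre recombinase from Ucp1 regulatory sequence in brown adipocytes. All mice were 6 weeks old, bred in house from heterozygous carriers, kept at room temperature on standard chow and killed in the morning without other treatment. The labels name no floxed allele or treatment, and do not give the sex of the mice. A single transgenic line stands for Cre expression here. Each of the 6 groups held 2 libraries, and nothing in the labels says that these came from separate mice, so p-values measure the spread between libraries, which may be technical.

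Carriers of this family sit in the inner mitochondrial membrane and move nucleotides, phosphate, carboxylates, amino acids, cofactors and metal ions between cytosol and matrix. They share a fold of repeated helix pairs, and most exchange one cargo for another. In brown fat they feed the matrix with acylcarnitines and other fuel for heat production, and the uncoupling protein Ucp1 is itself a carrier that lets protons back into the matrix. In white fat the carriers that export citrate and exchange dicarboxylates supply the cytosol for fatty acid synthesis.

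Total counts per library ran from 15679884 to 31814056. CPM is the count scaled to depth, and 3 counts, the limit that a count of 0 allows, correspond to 0.0943 to 0.191 CPM (counting error only). These limits use total counts alone, whereas all other CPM values here also carry TMM scaling factors (0.804 to 1.31), so the scales differ. The members together took 0.700% to 0.773% of all counts in brown libraries and 0.337% to 0.553% in white libraries. The 2 libraries of a group correlated at 0.986 to 0.994 on log2(CPM + 1) across genes, which are not independent replicates.

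Markers of other tissues did not follow the labels evenly, as the plot of summed marker levels shows. The 12 lymphocyte markers summed to 1887 to 1898 CPM in white libraries with 1 copy and 2017 to 2177 CPM with 2 copies, against 10.4 to 13.4 CPM in white wild type and 5.53 to 14.3 CPM in brown. The 8 adipocyte markers moved the other way, with 7599 to 8804 CPM with 1 copy and 3344 to 4522 CPM with 2 copies in white, against 15061 to 16169.5 CPM in white wild type. The 12 skeletal muscle markers stood at 3536 and 1397 CPM in brown wild type replicates 1 and 2, and at 9.57 to 28.5 CPM in the 4 transgenic brown libraries, where 5 to 7 of the 12 were at 0. One white library with 1 copy (replicate 1) held 2177 CPM of muscle markers, against 19.4 CPM in replicate 2. Epithelial markers summed to 284 to 539.7 CPM with 1 copy and 700.4 to 749 CPM with 2 copies in white, against 888 to 950.2 CPM in white wild type, and at most 1.91 CPM in brown. Krt5 of that list did not share the fall in white, at 7.85 and 12.7 CPM in wild type, 13.9 and 41.0 CPM with 1 copy and 12.9 and 52.1 CPM with 2 copies. Nor did Krt14, at 7.41 and 12.5, 11.1 and 27.5, and 11.3 and 29.6 CPM in the same order. Csn3 overlapped wild type (23.8 and 52.6 CPM) with 1 copy (28.3 and 30.0) and 2 copies (30.1 and 34.7). Epcam overlapped it with 2 copies (95.1 and 107 CPM, against 97.5 and 152). Most of the wild type sum was Krt8 (437 and 377 CPM) and Krt18 (314 and 343 CPM). Macrophage markers summed to 173 to 180.4 and 158 to 199 CPM in white with 1 and 2 copies, against 281 to 550.4 CPM in wild type. Endothelial markers summed to 614 to 617 and 435 to 475 CPM in white with 1 and 2 copies, against 672 to 692 CPM in wild type. Pecam1 of that list went the other way in white, at 186 and 189 CPM in wild type, 248 and 258 CPM with 1 copy and 205 and 221 CPM with 2 copies. The 10 brown adipocyte markers summed to 75.4 to 275 CPM with 1 copy and 27.9 to 35.5 CPM with 2 copies in white, against 217 to 572 CPM in white wild type, and their sum separated the depots, at 10179 to 20181 CPM in brown and 27.9 to 572 CPM in white libraries. Lhx8 of that list overlapped between the depots in wild type, at 3.32 and 3.55 CPM in brown and 5.70 and 3.03 CPM in white. It also overlapped with 2 copies (2.14 and 3.81 CPM in brown, 2.06 and 2.16 CPM in white). In bulk tissue fewer cells of a type and less RNA per cell cannot be told apart, and the part that lymphocyte, adipocyte, brown adipocyte, macrophage or muscle RNA had in the results below was not tested.

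**Figure D1:**
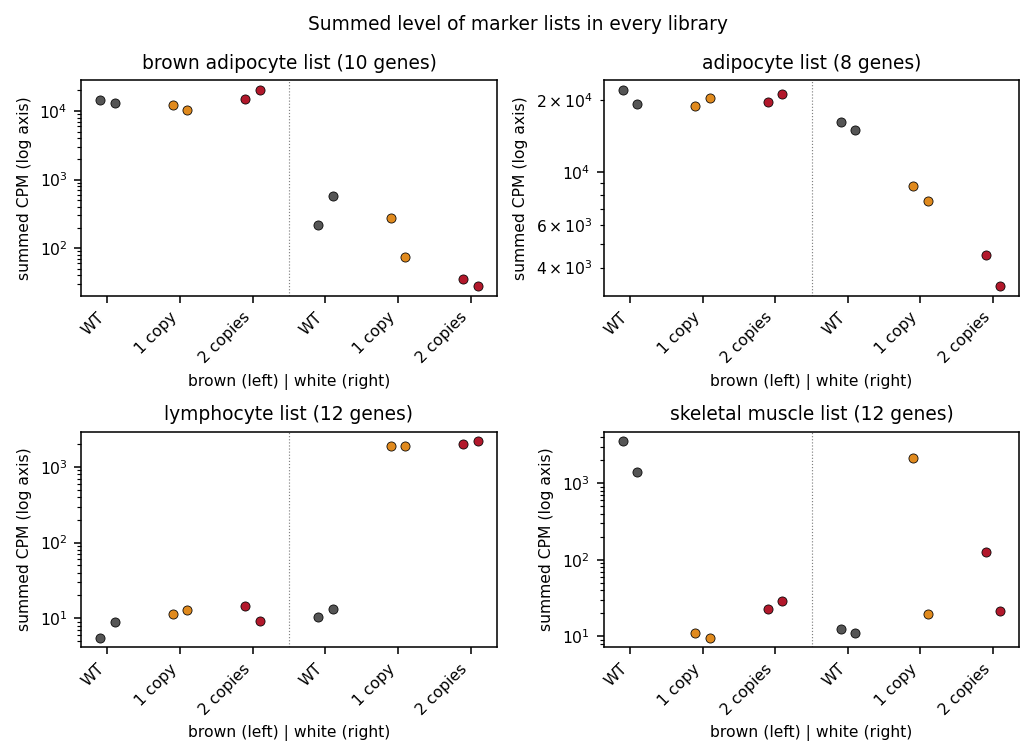
Summed level in CPM (log axis) of 4 marker lists in each of the 12 libraries, brown left and white right, by genotype, with 1 point per library. Lymphocyte markers sit near 10.4 CPM in wild type white libraries and near 2017 CPM with 2 copies, while muscle markers are high in both wild type brown libraries and in 1 white library with 1 copy.

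Levels of different members were compared per length, as CPM per kilobase of exon from the GENCODE M21 annotation of GRCm38 (the assembly of mm10), since the authors' own annotation is not given in the sources used here. Pairs of values per kb give the lower library first, whichever replicate it was. In wild type brown libraries the citrate carrier Slc25a1 had 417 and 636 CPM per kb, followed by the ADP/ATP exchangers Slc25a5 (421 and 468) and Slc25a4 (219 and 227). The glutathione carrier Slc25a39 was at 179 and 208 CPM per kb, and its higher library did not reach the lower one of Slc25a4. In wild type white libraries the order began with Slc25a1 (415 and 634) and Slc25a5 (205 and 207), and the dicarboxylate carrier Slc25a10 came after them at 102 and 139 CPM per kb. The carnitine/acylcarnitine carrier Slc25a20 ranked 6 of 49 in wild type brown and 16 in wild type white, and the coenzyme A carrier Slc25a42 ranked 8 and 21. Slc25a10 ranked 20 in brown and 3 in white. For 4 members (Slc25a5, Slc25a20, Slc25a36 and Slc25a37) at least 5% of 50-base stretches of the transcripts occur in other annotated genes, so reads may be split, and 13 members overlap an exon of another gene on the other strand. The strand setting of the counting is not given in the sources used here.

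**Figure D2:**
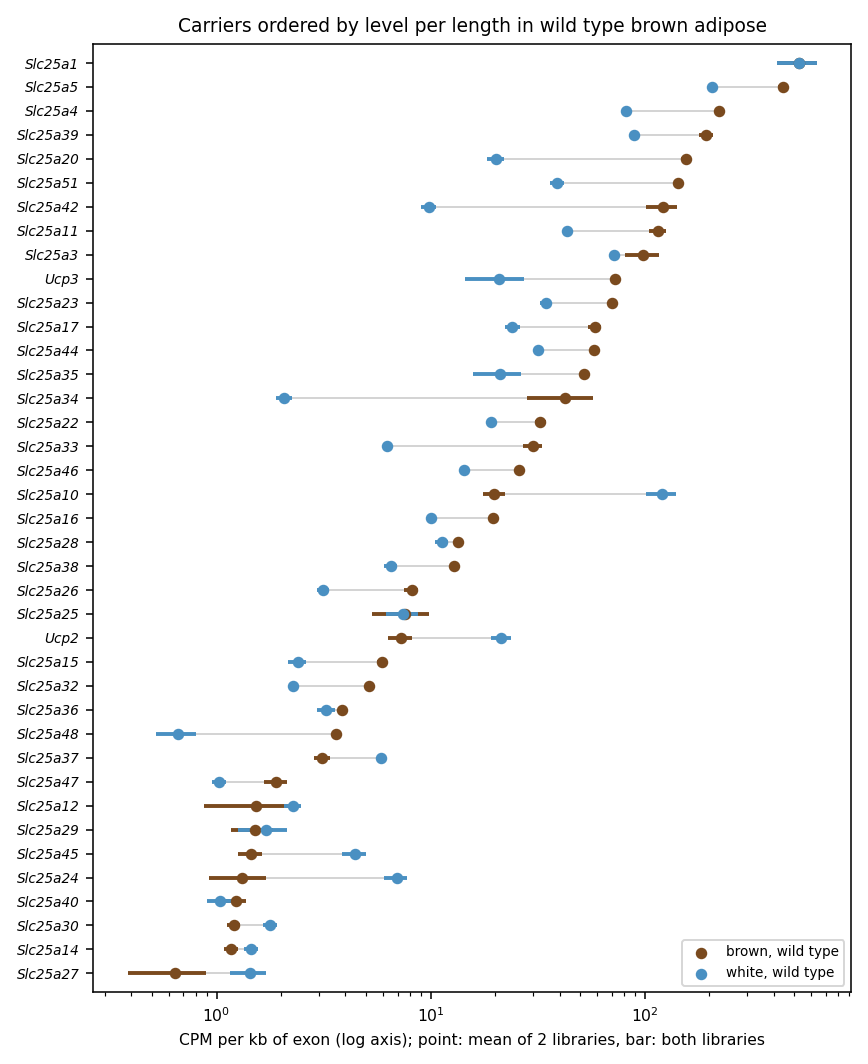
Level per length (CPM per kb of exon, log axis) of 39 members with a mean of at least 1 in wild type brown or wild type white libraries, ordered by brown. Points are means of 2 libraries and thick bars join the 2 libraries. Most members lie further right in brown, while Slc25a10, Ucp2, Slc25a24 and Slc25a45 lie further right in white. Means of Slc25a12, Slc25a14, Slc25a27, Slc25a29, Slc25a30 and Slc25a37 also lie further right in white, and Slc25a1 has means of 526 in brown and 525 in white.

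Most carriers were higher in brown than in white adipose. Levels were compared within each genotype and over the mean of the 3 genotypes by edgeR's quasi-likelihood test, with p-values adjusted over all 15559 genes and a threshold of 0.05. In wild type mice 25 of 43 tested members were higher in brown and 9 lower, against 29% and 32.1% of all genes tested. In 1-copy mice the numbers were 26 higher and 13 lower (all genes 29.4% and 40.6%), and in 2-copy mice 25 higher and 14 lower (all genes 32.1% and 42.3%). Over the mean of the genotypes 28 were higher and 14 lower (all genes 35% and 46.2%), and the median log2 fold change of the tested members was 1.20 against -0.19 over all genes. The one tested member without a call over the mean was Slc25a40 (-0.022 ± 0.11, adjusted p = 0.869). All 42 calls over the mean were kept when any single library was left out, and with the mean taken over the 2 transgenic genotypes alone 40 of them remained (Slc25a38 adjusted p = 0.195 and Slc25a28 adjusted p = 0.0535). In single genotypes 29 of 34 calls in wild type, 33 of 39 with 1 copy and 34 of 39 with 2 copies were kept whichever library was left out. Those lost were Slc25a3, Slc25a27, Slc25a30, Slc25a43 and Slc25a47 in wild type, Slc25a1, Slc25a3, Slc25a14, Slc25a27, Slc25a36 and Slc25a43 with 1 copy, and Slc25a14, Slc25a27, Slc25a36, Slc25a40 and Slc25a43 with 2 copies. With the 4 libraries of a genotype fitted alone, Slc25a3, Slc25a27 and Slc25a30 lost the call in wild type (adjusted p = 0.1, 0.0697 and 0.0898), Slc25a14 with 1 copy (0.126) and Slc25a14 and Slc25a40 with 2 copies (0.0702 and 0.0656). With median-of-ratios scaling Slc25a14 and Slc25a27 lost it with 1 copy (adjusted p = 0.102 and 0.0659) and Slc25a40 with 2 copies (0.069), and DESeq2 ended the calls of Slc25a14 and Slc25a27 with 1 copy (0.195 and 0.0667) and of Slc25a14 and Slc25a40 with 2 copies (0.0722 and 0.0942). In each of the 3 genotypes taken alone, 23 members were higher and 9 lower (all genes 19.8% and 23.2%).

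Wild type brown libraries held muscle RNA and transgenic white libraries lymphocyte RNA, so the 3 genotypes differ in what else moved with the depot. The 6 members outside the fit (Slc25a2, Slc25a18, Slc25a21, Slc25a31, Slc25a41 and Slc25a54) had too few counts, and Slc25a43 passed the low-count filter only through its white libraries, so its calls, which the counts of lower members include (in each genotype and over the mean), support nothing.

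**Figure D3:**
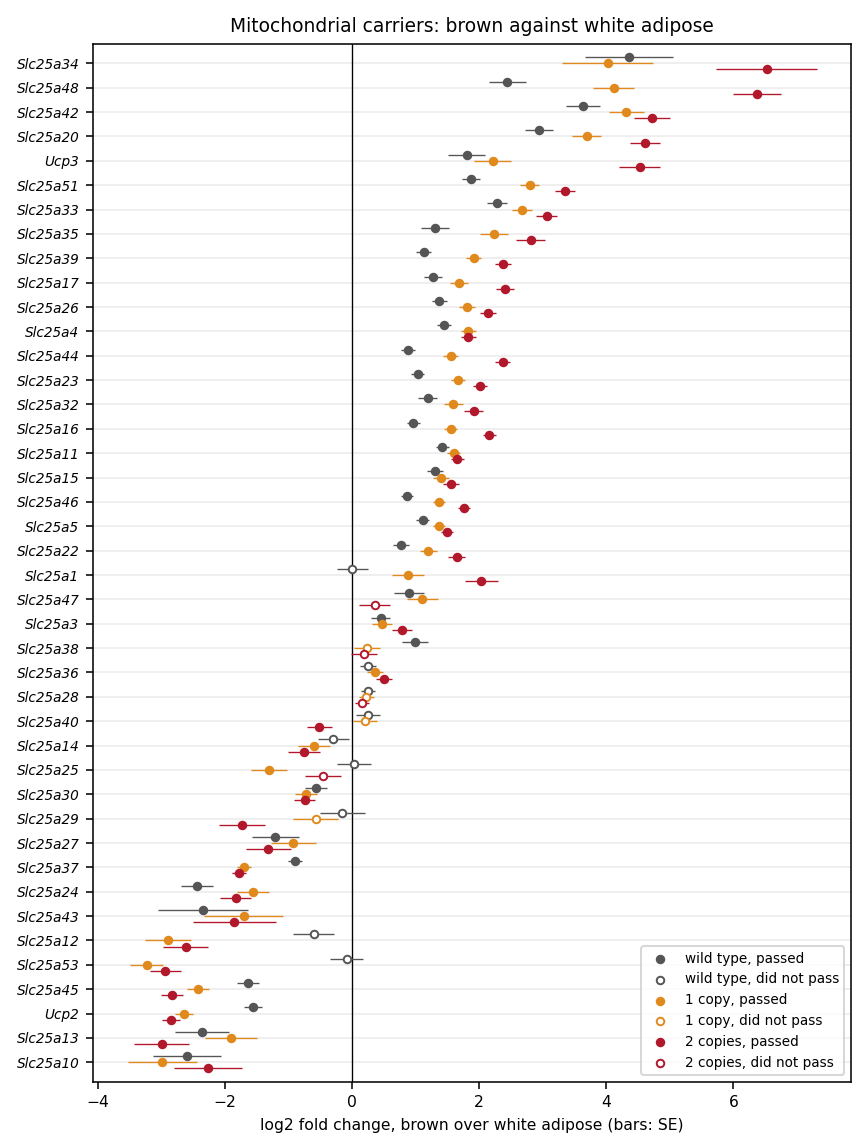
Log2 fold change of brown over white adipose (x axis, bars SE) for 42 tested members, ordered by the mean of the 3 genotypes. Filled points passed the test in that genotype and open points did not. Slc25a34, Slc25a48, Slc25a42 and Slc25a20 lie furthest towards brown, and Slc25a10, Slc25a13, Ucp2 and Slc25a45 furthest towards white.

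In white adipose the members changed with the transgene in both directions, more of them downwards. With 1 copy 8 of 43 tested members rose and 16 fell against wild type (all genes 28.4% and 23.6%). With 2 copies 10 rose and 23 fell (all genes 32.1% and 28.9%). Both comparisons use the same 2 wild type libraries. The median log2 fold change of the tested members was -0.36 with 1 copy and -0.51 with 2 copies, against 0.012 and 0.0099 over all genes. Between 2 copies and 1 copy 2 members fell, Slc25a23 and Slc25a44, and 0 rose (all genes 1.83% and 0.0327%). In that comparison 13 members had an unadjusted p under 0.05, and DESeq2 called 8 (8.05% of all genes). In 18 of 43 members every library with 2 copies lay below every library with 1 copy, and these below wild type, against 19.3% of all genes. The opposite order held for 5 members, Ucp2, Slc25a12, Slc25a13, Slc25a45 and Slc25a53 (all genes 16.6%). As described above, adipocyte markers fell and lymphocyte markers rose over the same groups. All 8 adipocyte markers fell with 2 copies (median log2 fold change -2.07). Some lymphocyte markers passed the low-count filter only through the transgenic libraries, such as Cr2 (0.0877 and 0.0446 CPM in white wild type) and Ms4a1 (0.132 and 0.401 CPM). Calls and fold changes of the lymphocyte list are therefore not used, only its sums given above. Of 9 tested brown adipocyte markers 2 fell with 1 copy (median -1.11) and 5 with 2 copies (median -3.03), and their part in the falls of the carriers was not tested.

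Without white 1-copy replicate 2, 10 members were called for 1 copy. Ucp2, Slc25a12, Slc25a17, Slc25a23, Slc25a37, Slc25a39, Slc25a44, Slc25a45, Slc25a51 and Slc25a53 kept that call whichever library was left out, and the other 14 lost it without white 1-copy replicate 2, with adjusted p of 0.0558 for Slc25a1, 0.102 for Slc25a3, 0.159 for Slc25a4, 0.155 for Slc25a5, 0.0802 for Slc25a16, 0.106 for Slc25a20, 0.106 for Slc25a24, 0.0938 for Slc25a26, 0.0834 for Slc25a29, 0.0903 for Slc25a30, 0.0822 for Slc25a38, 0.101 for Slc25a42, 0.0542 for Slc25a46 and 0.191 for Slc25a48. Calls lost in the other fits, with adjusted p in parentheses, were without wild type replicate 1 Slc25a4 (0.0804), Slc25a5 (0.0506), Slc25a20 (0.0884), Slc25a24 (0.145), Slc25a26 (0.062) and Slc25a42 (0.155), and without wild type replicate 2 Slc25a4 (0.0538), Slc25a20 (0.168), Slc25a30 (0.0605), Slc25a42 (0.0843) and Slc25a48 (0.217), and without 1-copy replicate 1 Slc25a3 (0.08), Slc25a5 (0.0738), Slc25a24 (0.167), Slc25a26 (0.0749), Slc25a30 (0.0806) and Slc25a48 (0.0552), and without 2-copy replicate 1 Slc25a24 (0.0676) and Slc25a48 (0.082), and without 2-copy replicate 2 Slc25a24 (0.066) and Slc25a48 (0.0791). For 2 copies 25 of 33 calls were kept in every such fit. The exceptions were Slc25a11, Slc25a13, Slc25a25, Slc25a30, Slc25a33, Slc25a38, Slc25a40 and Slc25a42, which without white 2-copy replicate 2 had adjusted p = 0.162, 0.0778, 0.0776, 0.066, 0.0999, 0.0686, 0.196 and 0.0534. Of these, calls were also lost without wild type replicate 1 Slc25a13 (0.0629), Slc25a40 (0.137) and Slc25a42 (0.0535), and without wild type replicate 2 Slc25a11 (0.135), and without 1-copy replicate 1 Slc25a11 (0.0767) and Slc25a40 (0.0588), and without 1-copy replicate 2 Slc25a11 (0.0868) and Slc25a40 (0.0574), and without 2-copy replicate 1 Slc25a11 (0.132), Slc25a13 (0.0909), Slc25a30 (0.0513), Slc25a33 (0.0535) and Slc25a40 (0.0621). Other processing ended some white calls as well. With all 12 libraries in one fit these were Slc25a24, Slc25a38 and Slc25a3 for 1 copy (adjusted p = 0.125, 0.058 and 0.067) and Slc25a13, Slc25a38 and Slc25a11 for 2 copies (0.148, 0.0534 and 0.0782). Without a filter on low counts they were Slc25a20 and Slc25a48 for 1 copy (adjusted p = 0.0537 and 0.0538) and Slc25a11 for 2 copies (0.058), and with DESeq2 Slc25a48 for 1 copy (0.0587).

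The calls between 2 copies and 1 copy were lost without any one of the 4 white transgenic libraries (adjusted p of Slc25a23 0.274, 0.0971, 0.107 and 0.223, and of Slc25a44 0.254, 0.144, 0.114 and 0.246, without 1-copy replicates 1 and 2 and 2-copy replicates 1 and 2), and without either wild type replicate 8 and 8 members were called (3.7% and 3.73% of all genes).

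**Figure D4:**
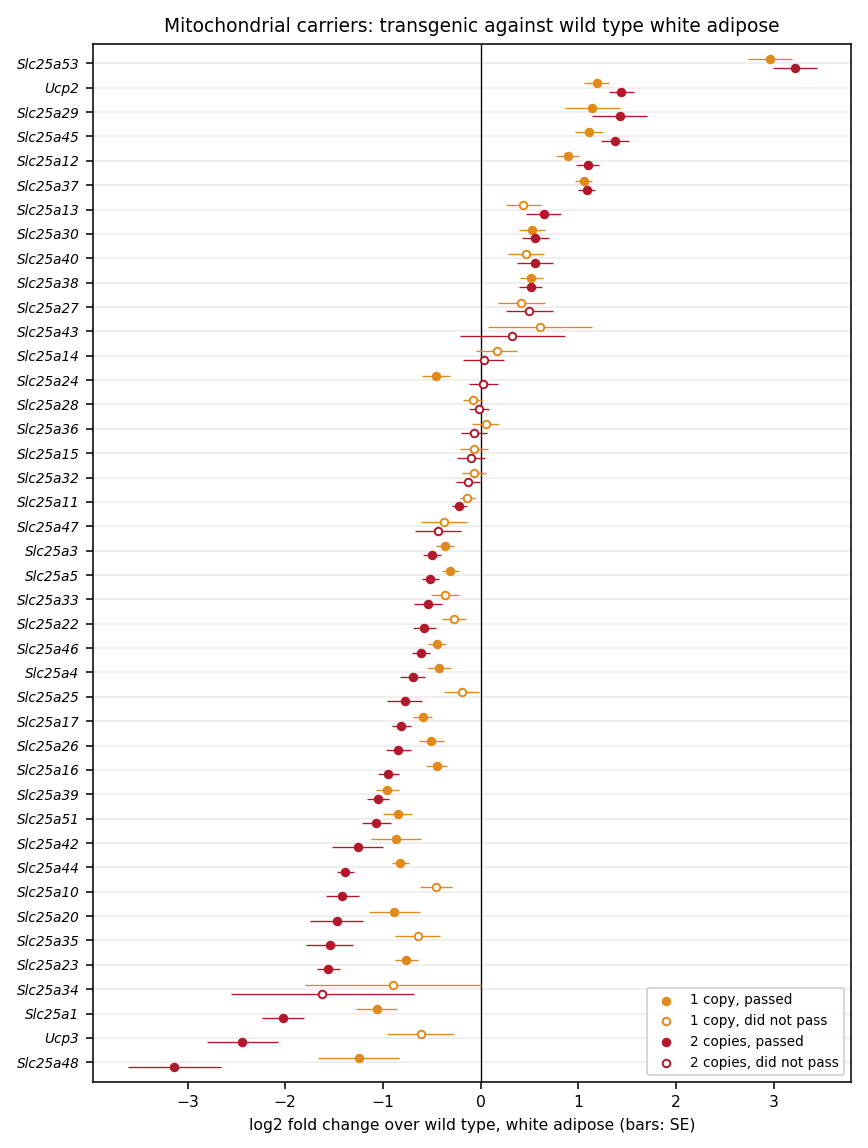
Log2 fold change over wild type in white adipose (x axis, bars SE) with 1 copy and with 2 copies for 42 tested members, ordered by 2 copies. Filled points passed the test and open points did not. Slc25a53 and Ucp2 lie at the top with 3.22 and 1.44, and Slc25a48 and Ucp3 at the bottom with -3.14 and -2.44 for 2 copies.

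In brown adipose 1 member was called in the 3 genotype comparisons. With 1 copy 0 of 42 tested members passed (3 at an unadjusted p under 0.05, and 3 with DESeq2, which called 7.78% of all genes), against 1.52% higher and 2.55% lower of all 13414 genes. With 2 copies 1 fell and 0 rose (all genes 0.82% and 0.47%). There 12 had an unadjusted p under 0.05, and DESeq2 called 6, beside 5.09% of all genes. Between 2 copies and 1 copy 0 passed (13 at an unadjusted p under 0.05, and 6 with DESeq2, which called 7.26% of all genes), against 1.24% higher and 0.708% lower of all genes. Median log2 fold changes of the tested members were -0.015, 0.14 and 0.049. Without brown wild type replicate 2 there were 4 calls for 1 copy (6.39% of all genes), and without brown wild type replicate 1 there were 3 for 2 copies (2.43% of all genes) and 2 between the copy numbers (5.82% of all genes).

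By library order, without overlap at either step, Slc25a4 and Slc25a23 were lower with each copy (2 of 42, all genes 2.63%), and Slc25a16, Slc25a32 and Slc25a48 higher (3 of 42, all genes 2.42%).

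The genotype difference itself was then compared between the depots by an interaction term. For 1 copy 8 members had a more positive difference in brown than in white and 6 a more negative one (all genes 13.8% and 18.8%). With median-of-ratios scaling, which shifts the median over all genes by 0.14 here, the split was 15 and 5. The shares of all genes under that scaling are not given here, so this split is no result about the carriers. For 2 copies the numbers were 19 and 8 (all genes 20.6% and 21.7%).

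Carriers of adenine nucleotides and phosphate supply ADP and phosphate to ATP synthase and return ATP to the cytosol. Of 6 tested members of this group 4 were higher and 2 lower in brown over the mean of the genotypes (all genes 35% and 46.2%). In white adipose 5 fell with 1 copy and 5 with 2 copies (all genes 23.6% and 28.9%). Slc25a4, the ADP/ATP exchanger known from heart and skeletal muscle (chr8:46206797-46211284, GRCm38), had 535 and 516 CPM in wild type, 513 and 506 CPM with 1 copy and 422 and 422 CPM with 2 copies in brown, and 196 and 189 CPM in wild type, 157 and 129.7 CPM with 1 copy and 128 and 109.8 CPM with 2 copies in white. Every brown library was above every white one (log2 fold change 1.70 ± 0.065, adjusted p = 2.47e-09), and in white Slc25a4 fell with either copy number (-0.43 ± 0.12 with 1 copy and -0.70 ± 0.12, adjusted p = 0.00376 with 2 copies). In brown its 2-copy libraries lay below those of wild type and of 1 copy without passing (-0.31 ± 0.089, adjusted p = 0.135 against wild type). The wild type libraries held muscle RNA, unlike those with 1 copy, and its part was not tested.

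Slc25a5, the exchanger of most other tissues (chrX:36795651-36798807), had 769.7 and 693 CPM in wild type, 680.2 and 731 CPM with 1 copy and 654 and 682 CPM with 2 copies in brown adipose. Its white libraries read 341 and 337 CPM in wild type, 284 and 264 CPM with 1 copy and 245 and 229.7 CPM with 2 copies. The depots did not overlap (1.32 ± 0.056, adjusted p = 5.52e-09), and with 2 copies white Slc25a5 fell (-0.51 ± 0.087, adjusted p = 0.00299). Of its transcript sequence 33.8% of stretches of 50 bases also occur in other annotated genes, so its counts are uncertain. The phosphate carrier Slc25a3 was at 643 and 451 CPM in wild type, 439 and 419.6 CPM with 1 copy and 455 and 522 CPM with 2 copies in brown, and at 381 and 419 CPM in wild type, 314 and 306 CPM with 1 copy and 293 and 274 CPM with 2 copies in white. Over the mean of the genotypes it was higher in brown (0.57 ± 0.087, adjusted p = 0.000124). Its wild type call was lost without brown or white wild type replicate 1 (adjusted p = 0.244 and 0.117) and with the 4 wild type libraries alone (0.1), and its 1-copy call without any one of the 4 1-copy libraries (up to 0.0798). In white it fell with 1 copy (-0.37 ± 0.092, adjusted p = 0.0174, lost with all 12 libraries in one fit, adjusted p = 0.067), and likewise with 2 copies (-0.49 ± 0.092).

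The calcium-regulated carriers Slc25a23, Slc25a24 and Slc25a25 exchange ATP-Mg for phosphate and so set the size of the adenine nucleotide pool in the matrix. Slc25a23 (chr17:57043711-57059863) was the one member called in brown between genotypes. It had 379.9 and 367 CPM in wild type, 339 and 345 CPM with 1 copy and 251 and 249.996 CPM with 2 copies in brown, so both 2-copy libraries lay below all others. The fall with 2 copies (-0.57 ± 0.09, adjusted p = 0.0332) was lost without either 1-copy library (adjusted p = 0.106 and 0.102) or either 2-copy library (adjusted p = 0.123 and 0.12), and was kept without either wild type library. Brown adipocyte markers summed to 15098 to 20181 CPM with 2 copies and 10179 to 12365 CPM with 1 copy, against 13072 to 14675 CPM in wild type. Much of these sums was Ucp1, at 9837 and 14596 CPM with 2 copies and 9064 and 7180 CPM in wild type. Of the 10 markers 0 passed with 2 copies against wild type, with log2 fold changes from -0.52 to 2.17 (median 0.047). Wild type libraries also held the muscle RNA, and the part of brown adipocyte or muscle RNA was not tested. White Slc25a23 read 172 and 193 CPM in wild type, 116 and 99.1 CPM with 1 copy and 65.6 and 58.3 CPM with 2 copies. It fell with 1 copy (-0.76 ± 0.12, adjusted p = 0.00301), with 2 copies (-1.56 ± 0.12, adjusted p = 0.000153) and between them (-0.80 ± 0.12, adjusted p = 0.0387), so its copy-number order was the same in both depots.

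Slc25a24 was the white-leaning form, with 5.81 and 3.17 CPM in wild type, 6.58 and 5.17 CPM with 1 copy and 6.92 and 6.69 CPM with 2 copies in brown adipose. White libraries had 26.7 and 20.9 CPM in wild type, 16.7 and 17.99 CPM with 1 copy and 25.4 and 23.1 CPM with 2 copies. It was lower in brown in each genotype (mean -1.95 ± 0.14, adjusted p = 3.76e-07), and in white it fell with 1 copy (-0.46 ± 0.15, adjusted p = 0.041). Slc25a25 had 41.9 and 77.3 CPM in wild type, 18.1 and 23.1 CPM with 1 copy and 23.1 and 26.6 CPM with 2 copies in brown, so the wild type libraries were highest and far apart. The difference with 1 copy did not pass (-1.55 ± 0.31, adjusted p = 0.0577), nor did that with 2 copies (-1.26 ± 0.31, adjusted p = 0.125). In white it read 68.5 and 48.5 CPM in wild type, 54.3 and 48.2 CPM with 1 copy and 36.2 and 32.2 CPM with 2 copies, and fell with 2 copies (-0.77 ± 0.18, adjusted p = 0.0116). In 1-copy mice it was lower in brown (-1.31 ± 0.28, adjusted p = 0.00251), and the difference with 1 copy was more negative in brown than in white (-1.35 ± 0.39, adjusted p = 0.0274). That interaction was lost without brown wild type replicate 2 (adjusted p = 0.0603), brown 1-copy replicate 1 (0.0973), white wild type replicate 2 (0.0866) or white 1-copy replicates 1 and 2 (0.0785 and 0.054).

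The uncoupling proteins Ucp2 and Ucp3 are close relatives of Ucp1 and lie next to each other on chromosome 7, yet they differed in opposite directions. In GRCm38 Ucp3 spans chr7:100472990-100486432 and Ucp2 chr7:100493337-100502020, both on the plus strand with 6904 bases between them. Of the 5 members in this group 1 was higher and 4 were lower in brown over the mean of the genotypes (all genes 35% and 46.2%). Ucp3, known from skeletal muscle and brown fat, had 223 and 231 CPM in wild type, 177 and 218 CPM with 1 copy and 266 and 287 CPM with 2 copies in brown, and 45.2 and 85.2 CPM in wild type, 51.3 and 33.8 CPM with 1 copy and 11.2 and 12.7 CPM with 2 copies in white. All brown libraries exceeded all white ones (2.85 ± 0.17, adjusted p = 3.12e-07). Ucp3 fell in white with 2 copies (-2.44 ± 0.36, adjusted p = 0.00265), while with 1 copy the libraries overlapped wild type (-0.61 ± 0.34, adjusted p = 0.181). In brown both 2-copy libraries were above the others without passing (0.29 ± 0.12, adjusted p = 0.256 against wild type and 0.50 ± 0.12, adjusted p = 0.0783 against 1 copy). Muscle markers were high in the brown wild type libraries, and their part in brown Ucp3 was not tested. Brown adipocyte markers were lower in the white 2-copy libraries, as given above, and their part in the falls of white Ucp3, Slc25a20, Slc25a42 and Slc25a48 was not tested.

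Ucp2, which is widely expressed and abundant in immune cells, had 57.01 and 44.2 CPM in wild type, 56.3 and 52.5 CPM with 1 copy and 57.8 and 54.8 CPM with 2 copies in brown adipose. White libraries had 165 and 134 CPM in wild type, 321 and 361 CPM with 1 copy and 394 and 418 CPM with 2 copies. Ucp2 was lower in brown in every genotype (-1.57 ± 0.14, adjusted p = 7.85e-06 in wild type, -2.65 ± 0.14, adjusted p = 1.19e-07 with 1 copy and -2.85 ± 0.15, adjusted p = 4.92e-08 with 2 copies). In white it rose with 1 copy (1.19 ± 0.13, adjusted p = 0.00095) and 2 copies (1.44 ± 0.13, adjusted p = 0.000289), and no group overlapped the next. Brown Ucp2 did not pass (adjusted p = 0.711 and 0.542 for 1 and 2 copies). The rises in white stand beside lymphocyte markers of 1898 and 1887 CPM with 1 copy and 2017 and 2177 CPM with 2 copies, against 10.4 and 13.4 CPM in wild type. In wild type the 5 macrophage markers were all lower in brown, with 49.5 to 80.3 CPM in brown, against 281 to 550.4 CPM in white. The part of lymphocyte or macrophage RNA in the Ucp2 values was not tested. Ucp2 exons overlap exons of Dnajb13 on the other strand, and whether strand was used in counting is not given in the sources used here. The interaction terms of Ucp2 were -1.08 ± 0.19, adjusted p = 0.00269 for 1 copy and -1.28 ± 0.19, adjusted p = 0.000558 for 2 copies, and that of Ucp3 was 2.72 ± 0.41, adjusted p = 0.000835 for 2 copies.

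**Figure D5:**
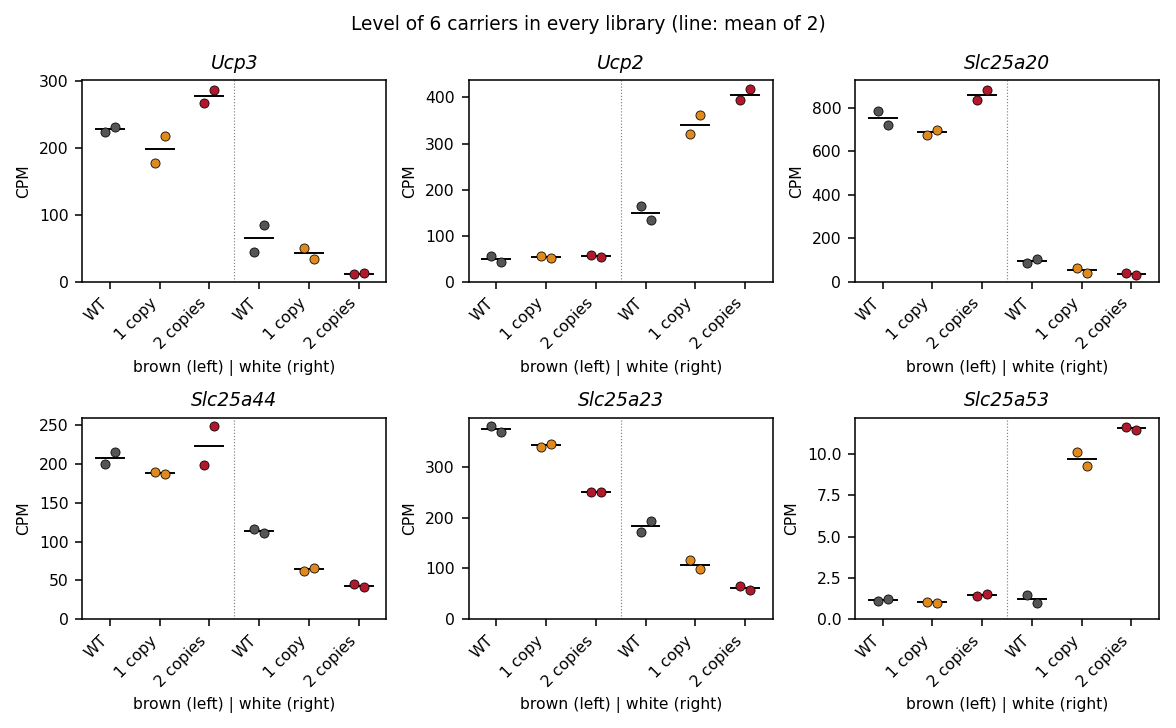
CPM of 6 members in every library (points, 2 per group) with the group mean (line), brown left and white right, each axis starting at 0. Ucp3 and Slc25a20 are high in brown and lowest in white with 2 copies, Ucp2 and Slc25a53 are higher in transgenic white libraries, and Slc25a23 is lowest with 2 copies in both depots.

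The sequences just upstream of these neighbours are shown because the genes share a locus and differed in opposite directions. They are the 250 bases before the RefSeq start of each gene (GRCm38.p6), in lower case, with any letters of a searched motif in capitals. Ucp3 is at chr7:100472741-100472990 and Ucp2 at chr7:100493108-100493357, both on the plus strand, and neither holds a searched motif.
Ucp3: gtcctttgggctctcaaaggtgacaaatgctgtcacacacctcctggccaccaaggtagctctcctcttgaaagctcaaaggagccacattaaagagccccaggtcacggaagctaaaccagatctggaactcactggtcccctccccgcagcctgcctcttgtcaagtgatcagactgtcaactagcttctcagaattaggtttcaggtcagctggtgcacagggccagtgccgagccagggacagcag
Ucp2: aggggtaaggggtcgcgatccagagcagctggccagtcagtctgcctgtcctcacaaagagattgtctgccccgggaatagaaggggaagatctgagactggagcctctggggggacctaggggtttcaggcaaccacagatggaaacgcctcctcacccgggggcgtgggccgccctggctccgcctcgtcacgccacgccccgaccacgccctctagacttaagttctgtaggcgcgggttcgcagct

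Both strands of these windows were searched for CACGTG (the E-box of clock factors), AAGGTCA (a site of estrogen-related receptors), the NRF1 palindrome and TTATGTAA (the D-box of Dbp and its relatives), and no 2 of these letter strings overlap in a printed sequence. Of 49 members 38 had a promoter entry. The E-box letters occurred for 7 of them, Slc25a1, Slc25a13, Slc25a14, Slc25a15, Slc25a31, Slc25a33 and Slc25a36, which is 18.4%, against 6.86% of all genes in the promoter table. The receptor site occurred for 1, Slc25a34 (all genes 4.7%), and the NRF1 and D-box letters for 0 (all genes 0.877% and 0.977%). A match describes letters only.

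The more distant relatives of the uncoupling proteins were low in both depots. Slc25a30, also called KMCP1, had 5.88 and 5.14 CPM in wild type, 7.19 and 7.02 CPM with 1 copy and 7.92 and 6.44 CPM with 2 copies in brown, and 8.77 and 7.53 CPM in wild type, 11.7 and 11.9 CPM with 1 copy and 11.8 and 12.3 CPM with 2 copies in white. It was lower in brown (-0.68 ± 0.097, adjusted p = 6.88e-05) and rose in white with each copy number (0.53 ± 0.14 and 0.56 ± 0.14). Slc25a27, also called UCP4 and known from the nervous system, had 3.53 and 1.51 CPM in wild type, 3.86 and 4.04 CPM with 1 copy and 3.64 and 2.75 CPM with 2 copies in brown. It read 4.56 and 6.69 CPM in wild type, 7.47 and 7.55 CPM with 1 copy and 6.75 and 9.14 CPM with 2 copies in white. It was lower in brown (-1.15 ± 0.21, adjusted p = 0.00043), and its white genotype differences did not pass. Slc25a14, also called UCP5, stayed between 1.999 and 3.86 CPM in all 12 libraries (-0.55 ± 0.14, adjusted p = 0.00413, brown against white).

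Carriers of di- and tricarboxylates and of aspartate and glutamate were divided between the depots, 3 higher and 3 lower in brown of 6 tested (all genes 35% and 46.2%). In white adipose 1 rose and 1 fell with 1 copy (all genes 28.4% and 23.6%), and 2 rose and 4 fell with 2 copies (all genes 32.1% and 28.9%). Slc25a1 (chr16:17925223-17928219) exports citrate for fatty acid synthesis. It was at 1375 and 902 CPM in wild type, 1080.5 and 925 CPM with 1 copy and 1316 and 967 CPM with 2 copies in brown, and at 899 and 1373 CPM in wild type, 591 and 497 CPM with 1 copy and 286 and 273 CPM with 2 copies in white. Wild type depots overlapped (0.0032 ± 0.25, adjusted p = 0.998), whereas brown was higher with 1 copy (0.88 ± 0.25, adjusted p = 0.0104) and with 2 copies (2.03 ± 0.26, adjusted p = 5.61e-05). In white it fell with either copy number, and no group overlapped the next (-1.06 ± 0.21, adjusted p = 0.00797 with 1 copy and -2.02 ± 0.21, adjusted p = 0.000539 with 2 copies). The call of brown over white in 1-copy mice was lost without brown replicate 1 or white replicate 2 (adjusted p = 0.0603 and 0.0713).

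Slc25a10 exchanges malate and succinate for phosphate and is known to be abundant in white fat. It had 76.7 and 60.4 CPM in wild type, 21.4 and 55.1 CPM with 1 copy and 17.1 and 47.3 CPM with 2 copies in brown, where replicates of the transgenic groups differed more than 2-fold. White libraries read 352 and 481 CPM in wild type, 325 and 282 CPM with 1 copy and 165 and 146 CPM with 2 copies. It was the largest fall in brown against white (-2.62 ± 0.31, adjusted p = 8.07e-05), and in white it fell with 2 copies (-1.42 ± 0.17, adjusted p = 0.000749) but not detectably with 1 copy (-0.46 ± 0.17, adjusted p = 0.0599). The 250 bases before its RefSeq start (chr11:120491587-120491836, GRCm38.p6, plus strand) hold no searched motif and are shown as those of the carrier furthest towards white.
Slc25a10: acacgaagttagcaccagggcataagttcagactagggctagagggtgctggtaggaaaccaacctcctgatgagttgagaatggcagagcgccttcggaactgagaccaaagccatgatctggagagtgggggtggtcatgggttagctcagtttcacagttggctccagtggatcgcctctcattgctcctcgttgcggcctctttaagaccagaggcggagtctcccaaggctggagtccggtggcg

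Slc25a11, which exchanges oxoglutarate for malate in the malate-aspartate shuttle, was at 267 and 223 CPM in wild type, 259.7 and 245 CPM with 1 copy and 245 and 250.3 CPM with 2 copies in brown. In white it had 87.9 and 95.3 CPM in wild type, 83.5 and 83.4 CPM with 1 copy and 78.9 and 78.7 CPM with 2 copies. The depots were separated (1.56 ± 0.057, adjusted p = 2.05e-09), and the fall in white with 2 copies was small (-0.22 ± 0.074, adjusted p = 0.0426). The aspartate/glutamate carriers of the same shuttle, Slc25a12 and Slc25a13, leaned to white. Slc25a12 had 16.1 and 6.42 CPM in wild type, 4.16 and 4.18 CPM with 1 copy and 5.21 and 6.38 CPM with 2 copies in brown. Muscle markers summed to 3536 and 1397 CPM in brown wild type replicates 1 and 2, and the part of muscle RNA was not tested. White Slc25a12 read 18.3 and 15.2 CPM in wild type, 32.2 and 30.03 CPM with 1 copy and 36.3 and 35.3 CPM with 2 copies. It rose in white with 1 copy (0.89 ± 0.12, adjusted p = 0.0017) and 2 copies (1.10 ± 0.12, adjusted p = 0.000473), and over the mean of the genotypes it was lower in brown (-2.04 ± 0.20, adjusted p = 6.18e-06) while wild type depots did not pass (-0.61 ± 0.33, adjusted p = 0.134). Slc25a13 was low in brown, at 0.277 and 0.944 CPM in wild type, 0.908 and 1.56 CPM with 1 copy and 0.642 and 0.688 CPM with 2 copies. White libraries had 3.20 and 3.66 CPM in wild type, 4.76 and 4.53 CPM with 1 copy and 5.45 and 5.28 CPM with 2 copies. It was lower in brown in each genotype (mean -2.42 ± 0.24, adjusted p = 4.39e-06) and rose in white with 2 copies (0.65 ± 0.18, adjusted p = 0.0203), a call lost with all 12 libraries in one fit (adjusted p = 0.148). The glutamate carrier Slc25a22 had 207 and 183 CPM in wild type, 214 and 222 CPM with 1 copy and 217 and 264 CPM with 2 copies in brown, and 116 and 113 CPM in wild type, 104 and 86.2 CPM with 1 copy and 82.3 and 71.5 CPM with 2 copies in white. It was higher in brown (1.20 ± 0.074, adjusted p = 8.93e-08) and fell in white with 2 copies (-0.57 ± 0.12). The glutamate carrier Slc25a18 and the oxodicarboxylate carrier Slc25a21 had at most 9 counts in a library and were not tested.

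Carriers of carnitine and amino acids included 2 with known roles in brown fat fuel use. Of 5 tested 4 were higher and 1 lower in brown (all genes 35% and 46.2%). In white adipose 2 rose and 2 fell with 1 copy (all genes 28.4% and 23.6%), and likewise with 2 copies (all genes 32.1% and 28.9%). Slc25a20 (chr9:108662088-108684641) brings acylcarnitines into the matrix for fatty acid oxidation. It had 784 and 718 CPM in wild type, 674 and 699 CPM with 1 copy and 833 and 882 CPM with 2 copies in brown, against 88.8 and 107 CPM in wild type, 65.1 and 40.9 CPM with 1 copy and 40.5 and 29.9 CPM with 2 copies in white. The depots differed by 2.94 ± 0.22 in wild type, 3.69 ± 0.23 in 1-copy and 4.61 ± 0.24 in 2-copy mice, and over their mean (3.75 ± 0.13, adjusted p = 2.38e-09). White Slc25a20 fell with 2 copies (-1.47 ± 0.27, adjusted p = 0.00558) and with 1 copy (-0.88 ± 0.26, adjusted p = 0.0371). In brown its 2-copy libraries were the highest without passing (0.34 ± 0.095, adjusted p = 0.103 against 1 copy).

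Slc25a44 (chr3:88410498-88425139) carries branched-chain amino acids into mitochondria of brown adipocytes. Brown libraries had 199.9 and 215 CPM in wild type, 189 and 187 CPM with 1 copy and 198 and 249 CPM with 2 copies. White libraries had 116 and 111 CPM in wild type, 61.9 and 66.3 CPM with 1 copy and 45.4 and 41.2 CPM with 2 copies, lower in each group than in the one before without overlap. The fall was -0.82 ± 0.088, adjusted p = 0.000854 with 1 copy, -1.39 ± 0.089, adjusted p = 8.48e-05 with 2 copies and -0.56 ± 0.088, adjusted p = 0.043 between them. Brown exceeded white by 0.88 ± 0.11, adjusted p = 8.61e-05 in wild type and by 2.37 ± 0.12, adjusted p = 4.11e-08 with 2 copies, and the genotype difference itself differed between depots (1.49 ± 0.16, adjusted p = 8.52e-05 for 2 copies). The 8 adipocyte markers were lower in the same white libraries, with a median log2 fold change of -0.94 with 1 copy and -2.07 with 2 copies (7 and 8 of 8 passed).

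Slc25a38, the glycine carrier of heme synthesis, had 36.4 and 34.6 CPM in wild type, 31.3 and 29.1 CPM with 1 copy and 21.3 and 36.6 CPM with 2 copies in brown, and 16.7 and 19.03 CPM in wild type, 23.9 and 27.4 CPM with 1 copy and 24.3 and 26.6 CPM with 2 copies in white. It was higher in brown in wild type (0.99 ± 0.21, adjusted p = 0.00203) and over the mean (0.47 ± 0.12, adjusted p = 0.00373), but did not pass in either transgenic genotype (adjusted p = 0.319 and 0.417 with 1 and 2 copies), and rose in white with 1 copy (0.52 ± 0.12) and 2 copies (0.51 ± 0.12). Slc25a29, a carrier of basic amino acids, had 3.04 and 4.80 CPM in wild type, 6.96 and 6.17 CPM with 1 copy and 2.36 and 4.75 CPM with 2 copies in brown. White libraries read 3.29 and 5.57 CPM in wild type, 8.93 and 10.7 CPM with 1 copy and 13.3 and 10.4 CPM with 2 copies. It rose in white with 1 copy (1.14 ± 0.28, adjusted p = 0.0162) and 2 copies (1.42 ± 0.28, adjusted p = 0.00547). The ornithine carrier Slc25a15 was at 31.5 to 38.4 CPM in brown and 11.7 to 14.8 CPM in white (1.42 ± 0.074, adjusted p = 2.42e-08), with no genotype call in either depot. Its close relative Slc25a2 had at most 11 counts in a library and was not tested.

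Among carriers of cofactors, metals and nucleotides 11 of 13 tested were higher and 1 lower in brown (all genes 35% and 46.2%). In white adipose 1 rose and 6 fell with 1 copy (all genes 28.4% and 23.6%), and 2 rose and 8 fell with 2 copies (all genes 32.1% and 28.9%). Slc25a42 (chr8:70184340-70212305) imports coenzyme A. It was at 846 and 605 CPM in wild type, 662 and 620.1 CPM with 1 copy and 725 and 567 CPM with 2 copies in brown, and at 63.6 and 53.8 CPM in wild type, 39.5 and 24.8 CPM with 1 copy and 28.02 and 21.1 CPM with 2 copies in white, and the depots did not overlap (4.22 ± 0.16, adjusted p = 6.82e-09). In white it fell with 2 copies (-1.26 ± 0.26, adjusted p = 0.00905), a call lost without white wild type replicate 1 or white 2-copy replicate 2 (adjusted p = 0.0535 and 0.0534).

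Slc25a51 (chr4:45395923-45408766) imports NAD. It had 792 and 779.9 CPM in wild type, 907 and 748 CPM with 1 copy and 1023 and 1069.6 CPM with 2 copies in brown, and 199 and 231 CPM in wild type, 131 and 107 CPM with 1 copy and 112 and 92.5 CPM with 2 copies in white. The depot difference (2.67 ± 0.088, adjusted p = 1.03e-09) had the smallest adjusted p of all members, and white Slc25a51 fell with 1 copy (-0.85 ± 0.15, adjusted p = 0.00487) and 2 copies (-1.07 ± 0.15, adjusted p = 0.00133). In brown its 2-copy libraries were highest without passing (0.42 ± 0.11, adjusted p = 0.117).

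Slc25a39 and Slc25a40 both carry glutathione. Slc25a39 had 573 and 495 CPM in wild type, 478 and 471 CPM with 1 copy and 571 and 647 CPM with 2 copies in brown, against 243 and 246 CPM in wild type, 131 and 121 CPM with 1 copy and 129 and 107 CPM with 2 copies in white. It was higher in brown (1.80 ± 0.07, adjusted p = 3.08e-09) and fell in white with 1 copy (-0.95 ± 0.11, adjusted p = 0.00128) and 2 copies (-1.05 ± 0.11, adjusted p = 0.000527). Slc25a40 had 9.20 and 11.5 CPM in wild type, 14.8 and 12.8 CPM with 1 copy and 8.78 and 9.13 CPM with 2 copies in brown, and 7.59 and 9.85 CPM in wild type, 10.99 and 13.1 CPM with 1 copy and 11.7 and 13.95 CPM with 2 copies in white, with overlapping depots. It rose in white with 2 copies (0.56 ± 0.19, adjusted p = 0.0403), a call lost without white wild type replicate 1, either 1-copy library or either 2-copy library (adjusted p from 0.0574 to 0.196).

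Slc25a33 and Slc25a36 carry pyrimidine nucleotides. Slc25a33 had 51.1 and 62.4 CPM in wild type, 52.9 and 63.9 CPM with 1 copy and 59.7 and 74.7 CPM with 2 copies in brown, and 11.4 and 12.03 CPM in wild type, 9.83 and 8.44 CPM with 1 copy and 8.39 and 7.76 CPM with 2 copies in white (2.67 ± 0.092, adjusted p = 1.34e-09). Slc25a36 stayed between 26.5 and 44.02 CPM over all libraries (0.37 ± 0.073, adjusted p = 0.000809). The difference between brown and white was thus 2.67 for one carrier and 0.37 for the other on the log2 scale, and the difference of these was not tested. White Slc25a33 fell with 2 copies (-0.54 ± 0.14, adjusted p = 0.0172, lost without either 2-copy library, adjusted p = 0.0535 and 0.0999).

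Slc25a26, which imports S-adenosylmethionine, had 42.1 and 36.1 CPM in wild type, 36.1 and 38.7 CPM with 1 copy and 38.8 and 35.3 CPM with 2 copies in brown, and 16.1 and 14.2 CPM in wild type, 10.8 and 10.5 CPM with 1 copy and 8.64 and 8.25 CPM with 2 copies in white (1.77 ± 0.07, adjusted p = 3.21e-09). Slc25a16, linked to coenzyme A metabolism, had 98.2 and 90.3 CPM in wild type, 107 and 101 CPM with 1 copy and 114 and 109.99 CPM with 2 copies in brown. White libraries had 47.6 and 49.03 CPM in wild type, 38.5 and 32.3 CPM with 1 copy and 26.1 and 24.1 CPM with 2 copies (1.56 ± 0.059, adjusted p = 2.44e-09). Slc25a17, a carrier of the peroxisome rather than the mitochondrion, had 179 and 154 CPM in wild type, 150.1 and 142 CPM with 1 copy and 177 and 236 CPM with 2 copies in brown. In white it was at 63.03 and 74.2 CPM in wild type, 46.4 and 44.7 CPM with 1 copy and 39.98 and 38.1 CPM with 2 copies (1.79 ± 0.083, adjusted p = 1.01e-08). All of these 3 fell in white with 1 copy (-0.51 ± 0.13, -0.45 ± 0.11 and -0.59 ± 0.098) and with 2 copies (-0.84 ± 0.13, -0.94 ± 0.11 and -0.81 ± 0.098). Of the 1-copy calls, that of Slc25a17 was kept whichever library was left out, while those of Slc25a26 and Slc25a16 were lost without white 1-copy replicate 2, as given above. Slc25a32, the carrier of folate and FAD, had 30.4 and 32.5 CPM in wild type, 45.8 and 33.5 CPM with 1 copy and 46.4 and 48.5 CPM with 2 copies in brown, and 13.4 and 14.2 CPM in wild type, 13.5 and 12.7 CPM with 1 copy and 11.8 and 13.5 CPM with 2 copies in white. It was higher in brown (1.56 ± 0.085, adjusted p = 3.41e-08), and its white libraries overlapped between genotypes (adjusted p = 0.402 for 2 copies).

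The mitoferrins carry iron for heme and iron-sulfur clusters. Slc25a37, mitoferrin 1, is best known from developing red cells. It had 17.2 and 20.5 CPM in wild type, 22.1 and 22.8 CPM with 1 copy and 20.3 and 23.1 CPM with 2 copies in brown, and 36.3 and 34.01 CPM in wild type, 70.3 and 75.9 CPM with 1 copy and 71.9 and 77.3 CPM with 2 copies in white. It was lower in brown in every genotype (mean -1.46 ± 0.064, adjusted p = 6.61e-09) and rose in white with 1 copy (1.05 ± 0.086, adjusted p = 0.000307) and 2 copies (1.09 ± 0.086, adjusted p = 0.000179), both kept whichever library was left out. The 6 erythroid markers summed to 127 and 113 CPM with 1 copy and 79.2 and 146 CPM with 2 copies in those white libraries, against 367 and 293 CPM in wild type. Lymphocyte markers were higher in the transgenic libraries, as given above, and the part of either cell type in the Slc25a37 values was not tested. Slc25a28, mitoferrin 2, stayed between 38.7 and 50.9 CPM in all 12 libraries (0.21 ± 0.067, adjusted p = 0.014, brown against white) and had no genotype call.

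Several members have a cargo that is unknown or was found lately. Of 8 tested 5 were higher and 3 lower in brown (all genes 35% and 46.2%). In white adipose 2 rose and 2 fell with 1 copy (all genes 28.4% and 23.6%), and 2 rose and 3 fell with 2 copies (all genes 32.1% and 28.9%). Slc25a34 (chr4:141618824-141623821) is an orphan carrier. It had 153 and 74.9 CPM in wild type, 44.9 and 53.1 CPM with 1 copy and 165 and 157 CPM with 2 copies in brown, so both 1-copy libraries were lowest. White libraries had 5.04 and 6.02 CPM in wild type, 4.69 and 1.20 CPM with 1 copy and 3.15 and 0.496 CPM with 2 copies. It showed the largest rise of brown over white (4.96 ± 0.42, adjusted p = 1.08e-05). In brown its differences did not pass, either with 1 copy against wild type (-1.21 ± 0.34, adjusted p = 0.133) or with 2 copies against 1 copy (1.73 ± 0.34, adjusted p = 0.0791). The 250 bases before its RefSeq start (chr4:141623835-141624084, GRCm38.p6, minus strand, written 5′ to 3′ along that strand) hold the receptor site in reverse orientation, in capitals, and are shown as those of the carrier furthest towards brown.
Slc25a34: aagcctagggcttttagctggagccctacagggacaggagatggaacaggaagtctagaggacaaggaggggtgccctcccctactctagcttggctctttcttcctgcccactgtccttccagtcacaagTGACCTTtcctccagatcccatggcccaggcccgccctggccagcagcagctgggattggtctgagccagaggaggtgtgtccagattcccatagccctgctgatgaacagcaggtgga

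Slc25a48, for which choline has been reported as cargo, had 11.8 and 12.5 CPM in wild type, 19.9 and 13.1 CPM with 1 copy and 21.6 and 20.8 CPM with 2 copies in brown, and 1.75 and 2.72 CPM in wild type, 1.20 and 0.666 CPM with 1 copy and 0.252 and 0.248 CPM with 2 copies in white. The depots did not overlap (4.31 ± 0.19, adjusted p = 7.57e-09), and in white it fell with 2 copies (-3.14 ± 0.48, adjusted p = 0.00195), where its counts were 6 and 7, against 40 and 61 in wild type. The call with 1 copy (-1.25 ± 0.42, adjusted p = 0.0458) was lost in 5 of the 6 fits that left out a library, all but that without white wild type replicate 1 (adjusted p from 0.0552 to 0.217). Slc25a35, a relative of Slc25a34, had 184 and 199 CPM in wild type, 235 and 232 CPM with 1 copy and 158 and 215 CPM with 2 copies in brown, and 58.03 and 97.5 CPM in wild type, 51.2 and 48.2 CPM with 1 copy and 26.8 and 26.5 CPM with 2 copies in white. It was higher in brown (2.11 ± 0.13, adjusted p = 1.62e-07) and fell in white with 2 copies (-1.54 ± 0.24, adjusted p = 0.00296). Slc25a46, which sits in the outer membrane and takes part in mitochondrial fission and fusion, had 135 and 146 CPM in wild type, 154 and 141 CPM with 1 copy and 173 and 170.1 CPM with 2 copies in brown. White libraries had 78.3 and 76.8 CPM in wild type, 61.5 and 52.5 CPM with 1 copy and 51.3 and 50.4 CPM with 2 copies. It was higher in brown (1.33 ± 0.055, adjusted p = 4.63e-09) and fell in white with each copy number (-0.44 ± 0.093 and -0.61 ± 0.093).

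Of the members lower in brown, the orphan Slc25a45 had 4.50 and 3.47 CPM in wild type, 4.99 and 4.82 CPM with 1 copy and 4.57 and 4.31 CPM with 2 copies in brown, and 13.7 and 10.7 CPM in wild type, 27.6 and 25.1 CPM with 1 copy and 32.3 and 31.2 CPM with 2 copies in white. It was lower in brown (-2.30 ± 0.10, adjusted p = 6.67e-09) and rose in white with 1 copy (1.11 ± 0.14, adjusted p = 0.00162) and 2 copies (1.38 ± 0.14, adjusted p = 0.000439). The orphan Slc25a53 (chrX:136981116-137038302) had 1.11 and 1.21 CPM in wild type, 1.06 and 0.992 CPM with 1 copy and 1.43 and 1.56 CPM with 2 copies in brown. White libraries had 1.49 and 0.981 CPM in wild type, 10.1 and 9.28 CPM with 1 copy and 11.7 and 11.4 CPM with 2 copies. The wild type depots overlapped (-0.087 ± 0.26, adjusted p = 0.826), and the rises in white with 1 copy (2.96 ± 0.22, adjusted p = 0.000227) and 2 copies (3.22 ± 0.22, adjusted p = 0.000115) were the largest of any member. Both carriers rose where lymphocyte markers were high, and the part of those cells was not tested. Slc25a43 stayed low, at 0.0692 and 0.0755 CPM in wild type, 0.151 and 0.213 CPM with 1 copy and 0.143 and 0.125 CPM with 2 copies in brown, and at 0.570 and 0.223 CPM in wild type, 0.600 and 0.622 CPM with 1 copy and 0.503 and 0.496 CPM with 2 copies in white, with counts of 1 to 3 a library in brown and 5 to 16 in white. Since it passed the low-count filter only through white, its fold change and p are not given. Slc25a47, a carrier enriched in liver, was at 2.86 to 6.38 CPM in brown and 2.14 to 3.30 CPM in white (0.78 ± 0.14, adjusted p = 0.000339). Slc25a54, a relative of the ATP-Mg carriers, had 0 counts in all 12 libraries, and the ADP/ATP exchanger of testis, Slc25a31, and the ATP-Mg carrier Slc25a41 had at most 8 and 2 counts.

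Genes that work with the carriers were mostly higher in brown as well. Carriers reach the inner membrane through small chaperones and the TIM22 complex, and all 13 tested genes of this import route were higher in brown over the mean of the genotypes, against 35% of all genes (median log2 fold change 1.24), Timm10 (2.08 ± 0.086) and Timm9 (1.83 ± 0.072), which form a chaperone of the intermembrane space, most of all. In white 7 fell with 2 copies, against 28.9% of all genes (median -0.34). Of 23 other mitochondrial transport genes 19 were higher and 3 lower in brown, against 35% and 46.2% of all genes (median 1.37), among them the cation exchanger Letm1 (2.96 ± 0.074) and the sideroflexin Sfxn5 (2.62 ± 0.12), and in white 2 rose and 16 fell with 2 copies, against 32.1% and 28.9% of all genes (median -0.64). Of 28 enzymes that make or use carrier cargoes 19 were higher and 6 lower in brown, against 35% and 46.2% of all genes (median 1.73). These numbers include Ckmt1 and Ckmt2, whose results support nothing. Ckmt1 passed the low-count filter only through white (0 to 0.143 CPM in brown, 1.43 to 3.68 CPM in white). Ckmt2 passed it only through brown wild type (24.3 and 6.80 CPM, and 0 in transgenic brown). Cpt1b (6.58 ± 0.46, adjusted p = 2.73e-06), which makes the acylcarnitines that Slc25a20 carries, and Pank1 (5.39 ± 0.27, adjusted p = 1.77e-07), of coenzyme A synthesis, had the largest values. In white 3 of 27 rose and 18 fell with 2 copies, again beside 32.1% and 28.9% of all genes (median -1.25). The medians over all genes were -0.19 between depots and 0.0099 for 2 copies in white.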

How the data were processed

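The deposited table holds raw counts of reads per gene. STAR, featureCounts, Subread and build mm10 are named, with no role, in the submitters' processing notes. Versions, annotation, strand setting and filters are not given in the sources used here. RNA was extracted with Trizol and columns and made into stranded mRNA libraries, per the labels' protocols. Groups came from the tissue and genotype in the labels. Replicate numbers were given here by sample order and pair nothing.

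Counts were analysed with edgeR 4.0.16 as the main test and DESeq2 1.42.0 as the alternative in R 4.3.3 (limma 3.58.1), and drawn with Python 3.11.15 and matplotlib 3.10.9. Genotypes were compared within a depot (6 libraries, 3 residual degrees of freedom; 13414 genes in brown and 15287 in white), and depots and interactions in 1 fit of all 12 (15559 genes, 6 residual degrees of freedom). Genes were kept by filterByExpr, scaled by TMM and tested by the robust quasi-likelihood test, two-sided, with Benjamini-Hochberg adjustment over all genes tested. The biological coefficient of variation was 0.148, 0.159 and 0.155. CPM values use the TMM factors of the 12-library fit (0.804 to 1.31), also where the fold change comes from a fit within a depot. Values after ± are the SE of a log2 fold change, obtained from the fold change and the root of its F statistic. The fits were also run on simulated data with known changes. That simulation gave every gene the same spread, so it says nothing on the calls reported here. Total counts were 15679884 to 31814056 per library, and limits cover counting error only. Libraries of a group differed by more than sampling noise (chi-square per degree of freedom 8.75 to 37.7).

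Members, roles and lists were chosen with earlier results of these data known. The rule for naming took every member called between genotypes or in an interaction, the 8 largest rises and 8 largest falls between depots among members called in all 3 genotypes, and Ucp2, Ucp3, Slc25a4, Slc25a5, Slc25a20, Slc25a25 and Slc25a44. Non-member lists are given by counts and the 2 largest called rises. Alternatives were median-of-ratios scaling, DESeq2, no filter on low counts, a mean CPM of at least 1, other sets of libraries in the fit and leaving out each library. Gene positions and exon lengths come from GENCODE M21 (all 49 members matched) and promoters from RefSeq (38 matched). Results of 1 member, which enters all counts and sums, are not reported here by name. Shared stretches were counted as 50-base strings of GENCODE transcripts.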

Additional observations from a re-analysis of the deposited data

Results flagged for a closer look

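A genotype difference that itself differed between the depots drew attention to the members below, by the interaction term of the 12-library fit (adjusted p under 0.05). Values are the log2 fold change against wild type in brown minus that in white. For 1 copy the difference was more positive in brown for Slc25a39 (0.78), Slc25a51 (0.92), Slc25a23 (0.63), Slc25a44 (0.67), Slc25a16 (0.59), Slc25a48 (1.68), Slc25a46 (0.51) and Slc25a35 (0.93). It was more negative in brown for Slc25a53 (-3.15), Ucp2 (-1.08), Slc25a37 (-0.81), Slc25a12 (-2.29), Slc25a25 (-1.35) and Slc25a45 (-0.79).

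For 2 copies the difference was more positive in brown for Slc25a44 (1.49), Slc25a16 (1.20), Slc25a48 (3.93), Slc25a39 (1.24), Slc25a51 (1.48), Slc25a23 (0.98), Slc25a46 (0.90), Ucp3 (2.72), Slc25a17 (1.13), Slc25a20 (1.67), Slc25a1 (2.03), Slc25a22 (0.88), Slc25a35 (1.51), Slc25a26 (0.77), Slc25a33 (0.78), Slc25a32 (0.72), Slc25a42 (1.09) and Slc25a5 (0.38). It was more negative in brown for Slc25a53 (-2.86), Ucp2 (-1.28), Slc25a37 (-0.88), Slc25a45 (-1.20), Slc25a12 (-2.01), Slc25a29 (-1.57), Slc25a40 (-0.77) and Slc25a38 (-0.80). Examples are Slc25a44 with 0.11 in brown and -1.39 in white, and Slc25a53 with 0.37 in brown and 3.22 in white. Slc25a23 was called lower with 2 copies in both depots (-0.57 in brown and -1.56 in white). Lymphocyte and adipocyte markers moved in the same white libraries, and muscle markers in the brown wild type libraries, and their part in these terms was not tested. For 1 copy 9 of the 14 calls and for 2 copies 20 of the 27 were kept whichever library was left out. The 1-copy calls lost, with the number of the 12 fits in which they were lost and the highest adjusted p, were Slc25a25 (5, 0.0973), Slc25a35 (9, 0.114), Slc25a45 (6, 0.0962), Slc25a46 (2, 0.0686) and Slc25a48 (3, 0.0562). The 2-copy calls lost were Slc25a5 (11, 0.136), Slc25a29 (4, 0.137), Slc25a32 (2, 0.0649), Slc25a33 (2, 0.0591), Slc25a38 (11, 0.128), Slc25a40 (9, 0.148) and Slc25a42 (4, 0.112). Other alternatives ended Slc25a45 and Slc25a35 for 1 copy (adjusted p = 0.0607 with median-of-ratios scaling and 0.0512 without a filter) and Slc25a40, Slc25a38 and Slc25a5 for 2 copies (0.0767 and 0.0805 with that scaling and 0.0605 without a filter). DESeq2 also ended Slc25a45 for 1 copy (adjusted p = 0.0957) and Slc25a40 and Slc25a38 for 2 copies (0.0961 and 0.0752). The number of calls for 1 copy was 9 without brown 1-copy replicate 1 and 9 without white 1-copy replicate 2.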

How the results depend on the processing

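No paired analysis was possible because the labels give library numbers but no replicate numbers that would pair depots or genotypes. Median-of-ratios scaling and a mean CPM of at least 1 kept the total of called members within 1.5 times in every comparison, but the scaling moved the split of the 1-copy interaction to 15 higher and 5 lower, against 8 and 6. The scaling shifted the median over all genes by 0.12 in 1-copy depots and by 0.14 and 0.12 in the interactions for 1 and 2 copies. DESeq2 called 3, 6 and 6 members in brown for 1 copy against wild type, 2 copies against wild type and 2 copies against 1 copy (edgeR 0, 1 and 0), 8 for 2 copies against 1 copy in white (edgeR 2) and 23 for the 1-copy interaction (edgeR 14). Without a filter 2 copies against 1 copy in brown gave 2. With all 12 libraries in the fit, brown gave 1 for 1 copy and 1 for 2 copies against 1 copy, and white 7 for 2 copies against 1 copy. The counts of this section stand without the share of all genes called under the same setting, except where that share is given above. They describe the processing and are no result about the carriers. Leaving out single libraries gave, in brown, 0 to 4 calls for 1 copy, 0 to 3 for 2 copies and 0 to 2 between them, and in white 10 to 22, 25 to 33 and 0 to 8. Between depots it gave 30 to 34 in wild type, 33 to 40 with 1 copy, 35 to 40 with 2 copies and 42 to 43 over the mean, and 9 to 16 and 22 to 30 for the interactions. Without single libraries adjusted p ran from 0.283 to 0.952 for Ucp2 in brown with 1 copy, 0.182 to 0.986 for Ucp2 with 2 copies and 0.368 to 0.91 for Slc25a44 with 2 copies. For Slc25a25 it ran from 0.0303 to 0.729 in white with 1 copy, 0.0989 to 0.936 between wild type depots and 0.0363 to 0.994 in the 2-copy interaction, and for Ucp3 from 0.0619 to 0.848 in the 1-copy interaction. The signs that changed belonged to values that were not called: Ucp2 in brown without wild type replicate 2 (adjusted p = 0.735 and 0.986), Slc25a44 in brown with 2 copies without 2-copy replicate 2 (0.861), Slc25a25 in white with 1 copy without wild type replicate 1 (0.597), between wild type depots without either replicate 2 (0.0989 and 0.646) and in the 2-copy interaction without brown wild type replicate 2 (0.994), and Ucp3 in the 1-copy interaction without white wild type replicate 2 (0.821). The cause of these moves was not tested. With 2 libraries a group, the fits within a depot had 3 residual degrees of freedom, which limits what could be detected.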
